A study of Homo sapiens with 8 samples.

Results

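Wnt genes were followed in RNA from 143B, an established human osteosarcoma cell line. The 10 genes were listed by name: the ligands WNT5A and WNT5B, the receptors FZD1, FZD2 and FZD7, the co-receptors LRP5 and LRP6, the inhibitor DKK1, the adaptor DVL1 and the target gene AXIN2. All 10 have a row, out of 54174 gene symbols in the table, and a value in every library. The 4 vector control libraries came from cells of control genotype transfected with a vector plasmid, and the 4 NELL1 knockout libraries from cells transfected with a NELL1KO plasmid, both harvested 48 h later. The transfection was transient, the labels mention neither a selection step nor a clone, and both groups share the one cell line, the reagent and the culture medium. NELL1 is the gene of a secreted glycoprotein known for its effects on bone formation.

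Wnt proteins are secreted lipid-modified ligands. In the β-catenin branch of the pathway, a ligand that joins a Frizzled receptor to LRP5 or LRP6 recruits Dishevelled, the complex that destroys β-catenin is blocked, and β-catenin enters the nucleus and acts with TCF and LEF factors on target genes. In other branches, Frizzled receptors signal through cell polarity or calcium without β-catenin. In bone, the pathway is best known for promoting the formation of osteoblasts, and secreted inhibitors such as DKK1 restrain it.

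The values are log2 expression values. Their library means were all but equal, from which it was inferred that the depositors had quantile normalized them between libraries. A difference is then relative to the rest of the transcriptome. The unit before the logarithm is not stated, so levels of different genes are not compared here. The base of the logarithm is not stated either and was taken as 2 from the spread of the values. No read totals are given, and the depth and counting error behind a value are unknown. Between 14911 and 15171 genes had a value per library. NELL1 itself was listed near the bottom of the range: -6.97, -6.97, -4.53 and -5.00 in control libraries 1 to 4 and -4.82, -5.87 and -6.96 in knockout libraries 1, 2 and 4, with library 3 blank, so its transcript does not check the labels. Of 8 osteoblast lineage markers, SP7 and IBSP were blank in every library, 4 had a value in all 8, and only RUNX2 and SPP1 were above 0 in all. The log2 sum of the 5 mesenchymal markers was 10.82 to 10.89 in the controls and 10.23 to 10.69 in the knockouts, carried by VIM. That of the 5 epithelial markers was 8.77 to 8.92 and 8.96 to 9.14, carried by KRT18, while CDH1 had a value in only 2 libraries. Both sums separated the groups, as did the values of 22.9% of the 9016 genes tested below. Most other markers of the 2 lists did not follow. Like VIM, ZEB1 was lower in every knockout library, but CDH2 and TWIST1 overlapped, and THY1 had a value in only 3 libraries. EPCAM, KRT19 and CLDN4 overlapped between the groups. The sum of the osteoblast markers (3.49 to 4.87 and 3.97 to 4.85) did not separate them. The sum of the 5 blood and endothelial markers overlapped too (5.72 to 5.90 and 5.54 to 5.88), with PTPRC blank throughout and nearly all of the sum from CD68, a lysosomal protein known as a macrophage marker. The part of these markers in the results that follow was not tested. In such bulk RNA, fewer cells expressing a gene and less RNA of that gene per cell cannot be told apart.

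The 8 libraries were not 8 equally distant replicates. Across the 9016 tested genes, the SD of the difference was 0.12 between knockout libraries 1 and 2 and 0.13 between 3 and 4. Between these pairs it was 0.46 to 0.50, more than the 0.36 to 0.45 between any knockout and any control library. The controls did not form the same pairs. Control library 4 was nearer to control libraries 1 and 2 (0.15 and 0.13) than to control library 3 (0.19). The results are given over all 8 libraries and also for replicates 1 and 2 and replicates 3 and 4 apart. This split matches the knockout pairs seen in the same values, so the test of it further below is not independent of them. The labels do not say what the sets shared.

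Over all 8 libraries DKK1 had the largest difference of the 10 genes. It encodes a secreted protein that binds LRP5 and LRP6 and keeps them from the Wnt-Frizzled complex, and it is also a known β-catenin target. It lies at chr10:52314281-52317657 (GRCh38.p14). Control libraries 1 to 4 had log2 values of 2.99, 2.95, 3.78 and 3.49 for DKK1, against 4.46, 4.38, 4.27 and 4.16 in knockout libraries 1 to 4. Every knockout library was above every control, and the controls spread more widely than the knockouts, with controls 1 and 2 the lowest. The mean rose from 3.30 ± 0.40 to 4.32 ± 0.13 (SD, n = 4 each), a log2 difference of 1.01 ± 0.18 (SE), or 2.02-fold (limma adjusted p = 0.0117). The exact two-sided permutation p was 0.0286, the smallest that 4 against 4 libraries allow. When knockout libraries 1 and 2 were averaged into 1 value, and 3 and 4 likewise, the limma adjusted p was 0.0904, the highest of its alternatives (0.00482 to 0.0904).

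The stretch before the DKK1 start site is shown because the DNA word CTTTG, the core that TCF and LEF factors bind, occurs there on either strand. The sequences run 5′ to 3′ on the strand of the gene, come from the RefSeq promoter windows of GRCh38.p14, and have CTTTG or its reverse complement CAAAG in capitals. FZD1 is set beside DKK1 because, of the 6 members with a window in that table, these were the pair with a match.
DKK1, chr10:52314121-52314220, plus strand, starting 160 bases before the start site: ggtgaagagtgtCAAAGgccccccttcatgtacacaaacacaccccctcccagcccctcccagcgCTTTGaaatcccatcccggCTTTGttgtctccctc
FZD1, chr7:91264193-91264332, plus strand, starting 240 bases before the start site: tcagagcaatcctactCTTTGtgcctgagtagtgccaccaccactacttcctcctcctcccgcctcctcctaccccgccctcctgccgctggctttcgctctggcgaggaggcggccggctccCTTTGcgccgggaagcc

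In the 250 bases before the start, DKK1 had 3 matches to CTTTG, which begin 148, 95 and 76 bases before it, and FZD1 had 2, at 224 and 117 bases. CTTTG is short, and 42.1% of all 35116 promoter windows held it on one strand or the other. The match of DKK1 at 95 bases extends to the longer word CTTTGAA, which 3.80% of the windows held, and no window of another member held CTTTGAA or CTTTGAT (2.26% of all windows). These are letter matches only. No binding was measured, and the windows of WNT5A, WNT5B, LRP5 and DVL1 held none of these words.

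FZD2 was the other listed gene that passed the test. Frizzled proteins are the 7-pass membrane receptors that bind Wnt ligands, and FZD2 is known as a receptor for WNT5A. Control libraries 1 to 4 had log2 values of 1.59, 1.65, 2.18 and 2.01 for FZD2, against 2.47, 2.30, 2.52 and 2.42 in knockout libraries 1 to 4. The groups did not overlap, though control library 3 came close to knockout library 2. The mean rose from 1.86 ± 0.28 to 2.43 ± 0.10 (SD, n = 4 each), a log2 difference of 0.57 ± 0.14 (SE; limma adjusted p = 0.0297), or 1.48-fold. This call was the less stable: the limma adjusted p was 0.0538 to 0.0919 without control library 1, 2 or 4 or knockout library 1, 3 or 4, each left out singly, and 0.149 with the knockout pairs averaged, within 0.00517 to 0.149 over all alternatives. FZD2 and its relatives also share some sequence, and 2.67% of the 50-base words of its transcripts occur in FZD1, FZD5 or FZD7.

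Of the 9 listed genes that were expressed highly enough to be tested (a mean log2 value of at least 1), 2 were called at a limma adjusted p under 0.05, both higher. Among all 9016 tested genes 13.1% were called, 7.02% higher and 6.10% lower. The median log2 difference of the 9 genes was -0.12, against 0.01 for all tested genes, with 4 above 0 and 5 below. Groups that do not overlap were seen for 3 of the 9, DKK1, FZD2 and DVL1, and for 22.9% of all tested genes. With the knockout pairs averaged none of the 9 was called by limma, and 1.20% of all tested genes were called.

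**Figure D1:**
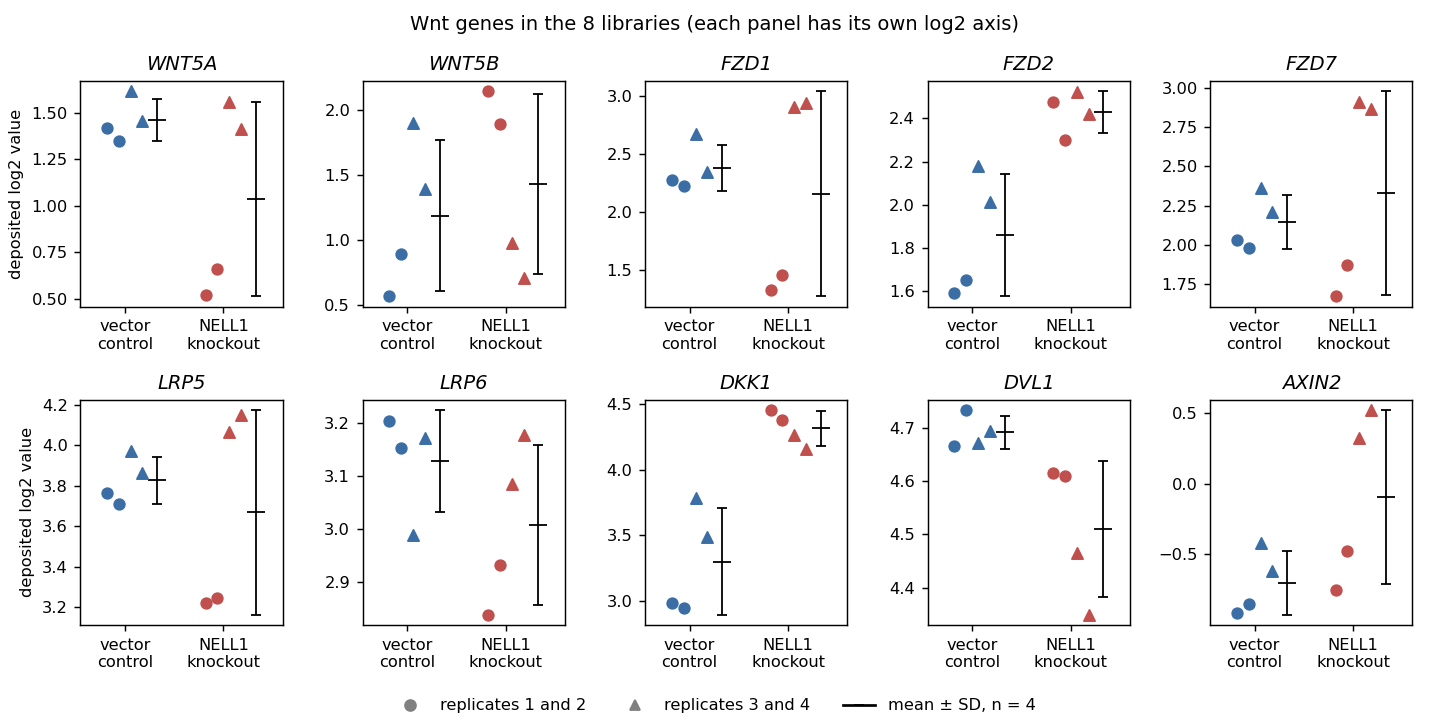
Deposited log2 value of each listed gene (vertical axis, own scale in each panel) in the 4 vector control and 4 NELL1 knockout libraries; circles are replicates 1 and 2, triangles replicates 3 and 4, and black bars the mean ± SD. DKK1 and FZD2 are higher, and DVL1 lower, in every knockout library than in every control, while for FZD1, FZD7, LRP5, WNT5A and WNT5B the knockout libraries fall into 2 levels.

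The ligands did not pass the test over all 8 libraries. WNT5A, which mostly signals without β-catenin and is known to promote migration, had log2 values of 1.42, 1.35, 1.61 and 1.45 in control libraries 1 to 4 and 0.52, 0.66, 1.56 and 1.41 in knockout libraries 1 to 4. Knockout libraries 1 and 2 were below all other libraries, and knockout libraries 3 and 4 lay among the controls. The log2 difference was -0.42 ± 0.23 (SE; limma adjusted p = 0.257), with a 95% interval of -0.94 to 0.10, and ran from -0.60 to -0.25 with 1 library left out. The gene lies at chr3:55465715-55505263.

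WNT5B, the paralog of WNT5A, is at chr12:1617056-1647212. It had values of 0.57, 0.89, 1.90 and 1.39 in the controls and 2.14, 1.89, 0.98 and 0.71 in the knockouts. Here knockout libraries 1 and 2 were above control libraries 1 and 2, and knockout libraries 3 and 4 were below control libraries 3 and 4. The log2 difference over all 8 libraries, 0.24 ± 0.38 (SE; limma adjusted p = 0.710), therefore averages over opposite differences, and it was 0.0056 without knockout library 1 and 0.48 without knockout library 4. FBXL14 overlaps WNT5B on the opposite strand, and how the depositors used the strand is not given in the sources used here. FBXL14 lay at -0.39 to 0.05 in the 8 libraries, with group means of -0.16 and -0.20.

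FZD1 and FZD7, close relatives of FZD2, had a pattern unlike it. FZD1 (chr7:91264433-91271326) was at 2.27, 2.22, 2.67 and 2.34 in the controls and at 1.33, 1.45, 2.90 and 2.94 in the knockouts. FZD7 (chr2:202033855-202038441) was at 2.03, 1.98, 2.36 and 2.21 in the controls and at 1.67, 1.87, 2.91 and 2.86 in the knockouts. For each gene knockout libraries 1 and 2 were below every control and knockout libraries 3 and 4 above every control. Over all 8 libraries the log2 differences were -0.22 ± 0.38 for FZD1 and 0.18 ± 0.28 for FZD7 (SE; limma adjusted p = 0.736 and 0.707). Both signs depended on single libraries: the difference of FZD1 became 0.054 without knockout library 1 and 0.011 without knockout library 2, and that of FZD7 became -0.0090 without knockout library 3. FZD1 and FZD7 shared 0.463% and 0.525% of their 50-base words with FZD2.

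The co-receptors LRP5 and LRP6 are single-pass membrane proteins of the LDL receptor family, and both are bound by DKK1. LRP5 (chr11:68298412-68449275) had values of 3.76, 3.71, 3.97 and 3.86 in the controls and 3.22, 3.24, 4.06 and 4.15 in the knockouts. Knockout libraries 1 and 2 were again below, and 3 and 4 above, every control. LRP6 (chr12:12116025-12267044) varied less, with 3.20, 3.15, 2.99 and 3.17 in the controls and 2.84, 2.93, 3.08 and 3.18 in the knockouts, and the groups overlapped. The log2 differences over 8 libraries were -0.16 (95% interval -0.66 to 0.35; limma adjusted p = 0.674) for LRP5 and -0.12 (95% interval -0.33 to 0.09; limma adjusted p = 0.414) for LRP6. The difference of LRP5 was -0.0084 without knockout library 1 and -0.32 without knockout library 4, and that of LRP6 ran from -0.18 to -0.065 with 1 library left out.

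DVL1 encodes a Dishevelled protein, the cytoplasmic adaptor that relays the signal from Frizzled. Its values were tightly grouped: 4.67, 4.73, 4.67 and 4.69 in the controls and 4.62, 4.61, 4.47 and 4.35 in the knockouts. Every knockout library was below every control (exact two-sided permutation p = 0.0286, the smallest possible), but the log2 difference of -0.18 ± 0.08 (SE) did not pass after adjustment over all genes (limma adjusted p = 0.150). The gene is at chr1:1335278-1349418. TAS1R3 overlaps it on the opposite strand and had a value in 5 libraries. The related DVL2 and DVL3 had log2 differences of 0.12 and 0.09 (limma adjusted p = 0.237 and 0.563).

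AXIN2 is a scaffold of the β-catenin destruction complex and, as a direct target of the pathway in many tissues, its common readout. It lies at chr17:65528563-65561648. With a mean under 1 it was below the filter, and it was tested in a fit over all 13943 genes with a value in every library, of which 8.30% were called. Its values were -0.91, -0.85, -0.42 and -0.62 in the controls and -0.75, -0.47, 0.32 and 0.52 in the knockouts. Knockout libraries 3 and 4 were above all other libraries, and knockout libraries 1 and 2 overlapped with the controls. The log2 difference was 0.61 ± 0.29 (SE), with a 95% interval of -0.07 to 1.28 (limma adjusted p = 0.229). With the replicate set (1-2 or 3-4) as a term in the model the limma adjusted p was 0.0409, against 0.0409 to 0.407 over all alternatives, and with a pseudocount of 1 the difference was 0.28. Without knockout library 4 it was 0.40. AC004805.1, a gene model on the same strand in GENCODE 29 that overlaps AXIN2, holds 24.7% of the 50-base words of the AXIN2 transcripts, so its reads could be assigned in more than one way.

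For most of these genes the sets of replicates lay apart, and more so in the knockouts. From replicates 1 and 2 to replicates 3 and 4, the knockout mean of FZD1 was higher by 1.53, of FZD7 by 1.11, of AXIN2 by 1.03, of WNT5A by 0.89 and of LRP5 by 0.88 log2 units. In the controls the same genes were also higher in replicates 3 and 4, by only 0.15 to 0.36. WNT5B went opposite ways, with -1.17 in the knockouts and 0.91 in the controls. For DKK1 and FZD2 it was the controls that differed more, by 0.67 and 0.48, against -0.21 and 0.08 in the knockouts.

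**Figure D2:**
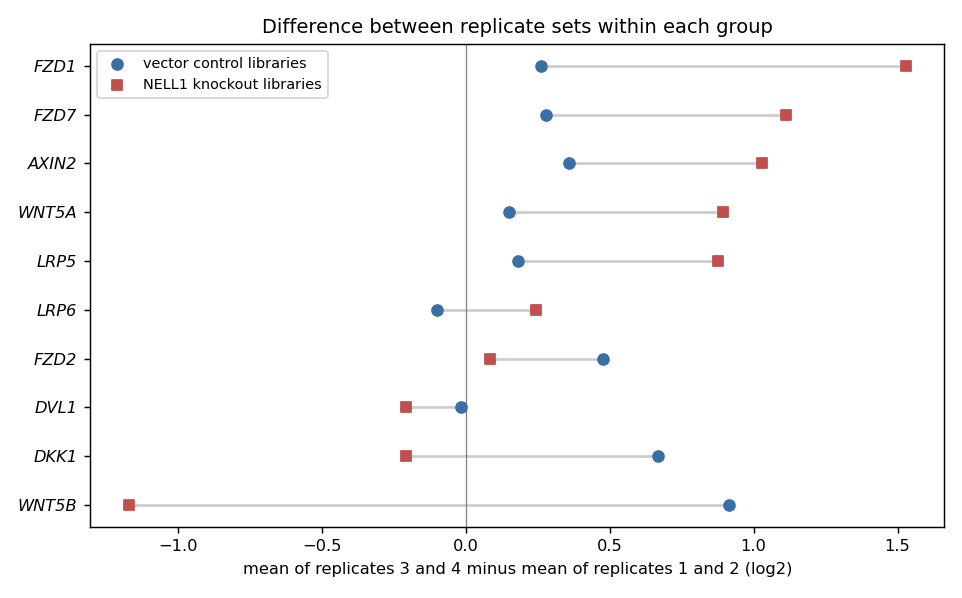
Mean log2 value of replicates 3 and 4 minus that of replicates 1 and 2 (horizontal axis) for each listed gene, in the vector control libraries (blue circles) and the NELL1 knockout libraries (red squares). The knockout squares of FZD1, FZD7, AXIN2, WNT5A and LRP5 lie between 0.88 and 1.53, and that of WNT5B lies at -1.17.

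Set against the controls of the same numbers, DKK1 was higher in the knockouts by 1.45 in the first set (replicates 1 and 2) and by 0.58 in the other, and FZD2 by 0.77 and 0.37. AXIN2 was the third gene with a positive difference in both sets, 0.27 and 0.94. WNT5A (-0.79 and -0.05) and DVL1 (-0.09 and -0.28) were negative in both. FZD1 (-0.86 and 0.41), FZD7 (-0.23 and 0.60), LRP5 (-0.51 and 0.19) and LRP6 (-0.29 and 0.05) were negative in the first set and positive in the other, and WNT5B (1.28 and -0.80) was the reverse. These within-set values rest on 2 libraries a group and were not tested singly.

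Whether the knockout difference itself differed between the sets was tested as an interaction in 1 limma model of all 8 libraries. It did so for 8 of the 9 tested genes, DVL1 being the exception (limma adjusted p = 0.132). The background was high: 41.3% of all 9016 tested genes passed. The residual spread in this model comes from pairs of libraries within a set, so its p-values rest on the spread within those pairs. The knockout pairs were known from these same values, so the passing of many genes is no separate support for them. The interaction was -2.08 ± 0.25 for WNT5B, 1.27 ± 0.14 for FZD1, 0.83 ± 0.12 for FZD7 and -0.88 ± 0.13 for DKK1 (SE; limma adjusted p = 4.11e-04, 3.09e-04, 8.61e-04 and 0.00122). Of the genes that passed it was smallest for FZD2 and LRP6, at -0.39 and 0.34 (limma adjusted p = 0.0296 and 0.0350), and neither of these passed in the fit without the filter, where 27.4% of genes did. FZD2 also missed after a further quantile normalization and without control library 1, 2 or 3 or knockout library 1 or 4, and LRP6 without control library 1, 2 or 3 or knockout library 1, 2 or 4. AXIN2 passed in that fit, with 0.67 ± 0.18 (SE; limma adjusted p = 0.0422). The median absolute interaction was 0.74 over the 9 genes and 0.26 over all tested genes.

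**Figure D3:**
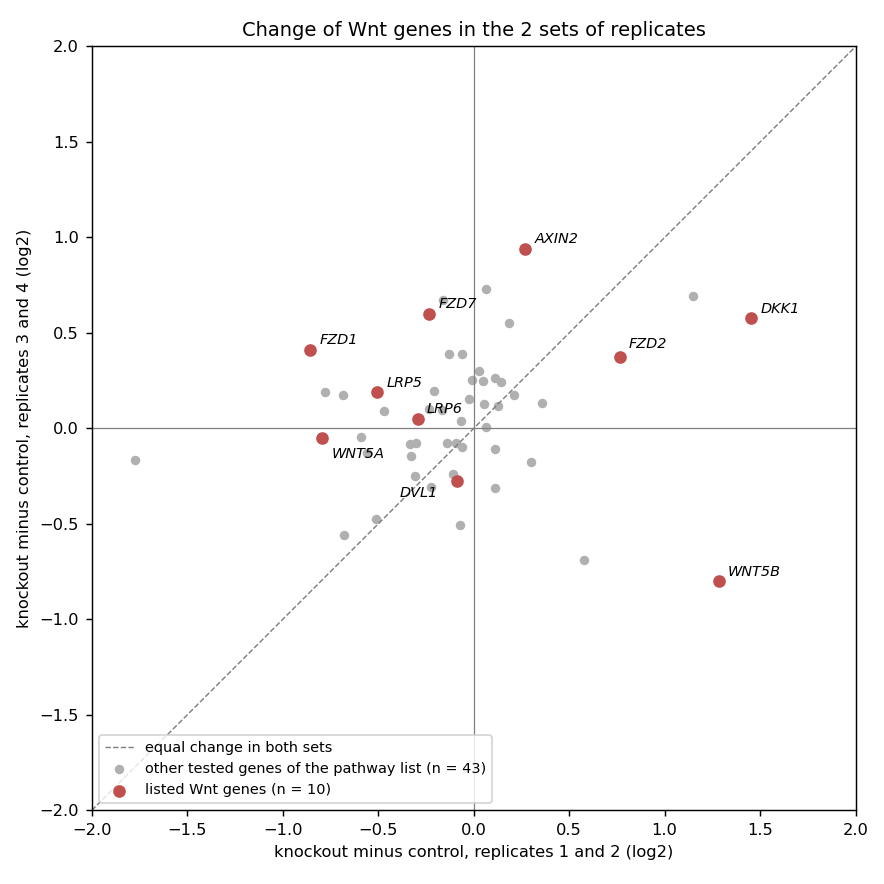
Knockout minus control log2 difference in replicates 1 and 2 (horizontal axis) and in replicates 3 and 4 (vertical axis) for the 10 listed genes (red) and the other 43 tested genes of the Wnt pathway list (grey); the dashed line marks equal differences. DKK1 and FZD2 lie in the upper right, FZD1, FZD7, LRP5 and LRP6 in the upper left, and WNT5B in the lower right.

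The rest of the pathway was read from a list of 114 Wnt genes in 9 roles, the 10 genes included. Of these genes 106 had a value in any library, 98 in all 8, and 52 passed the filter. Of these 52, 7 were called, 3 higher and 4 lower, close to the 13.1% of all tested genes, and the median log2 difference was -0.04. Without the 10 genes, 5 of 43 were called, 1 higher and 4 lower, with a median of -0.03.

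WLS, FZD8, CTNNB1 and INVS fell. WLS, the carrier that brings Wnt proteins to the cell surface, was 5.63, 5.64, 5.51 and 5.63 in control libraries 1 to 4 and 4.94, 4.97, 5.00 and 5.03 in knockout libraries 1 to 4. It fell by 0.62 on the log2 scale, with an SE of 0.06 (limma adjusted p = 0.00133), and by similar amounts in both sets of replicates (-0.68 and -0.56). FZD8, another Frizzled receptor, fell by 0.49 on the log2 scale to a mean of 3.01 ± 0.09 (SD, n = 4), from 3.50 ± 0.04 in the controls (limma adjusted p = 0.00449), with -0.51 and -0.48 in the sets. The interaction of WLS and FZD8 with the set was 0.12 and 0.036 and did not pass (limma adjusted p = 0.317 and 0.816).

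CTNNB1, which encodes β-catenin, fell by 0.28 to a mean of 6.49 ± 0.04 (SD, n = 4), against 6.77 ± 0.04 in the controls (limma adjusted p = 0.0180). With the replicate number as a block its limma adjusted p was 0.0562, it was 0.136 with the knockout pairs averaged, and without control library 1, 2 or 4 it was 0.0538, 0.0731 or 0.0721 (0.00886 to 0.136 over all alternatives). INVS, which encodes inversin, a protein that favours the polarity branch over β-catenin, fell by 0.27 (limma adjusted p = 0.0477). Its call was lost with the replicate block (limma adjusted p = 0.0783), with the knockout pairs averaged (0.197) and without any 1 of the 8 libraries (0.0664 to 0.137), and also without the filter, with a pseudocount and with a variance trend (0.0180 to 0.197 over all alternatives).

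TLE1 was the one further gene that rose. It encodes a Groucho corepressor, which binds TCF and LEF factors when β-catenin is absent. It was 0.99, 1.16, 1.21 and 1.13 in the controls and 2.21, 2.24, 1.88 and 1.85 in the knockouts, a log2 difference of 0.92 ± 0.11 (SE; limma adjusted p = 0.00239), or 1.89-fold. The difference was 1.15 in replicates 1 and 2 and 0.69 in the other set, and unlike those of WLS and FZD8 its interaction passed (-0.45; limma adjusted p = 0.00775). WLS, FZD8 and TLE1 were the 3 genes of the list that were still called with the knockout pairs averaged, where DKK1, FZD2, CTNNB1 and INVS were not.

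**Figure D4:**
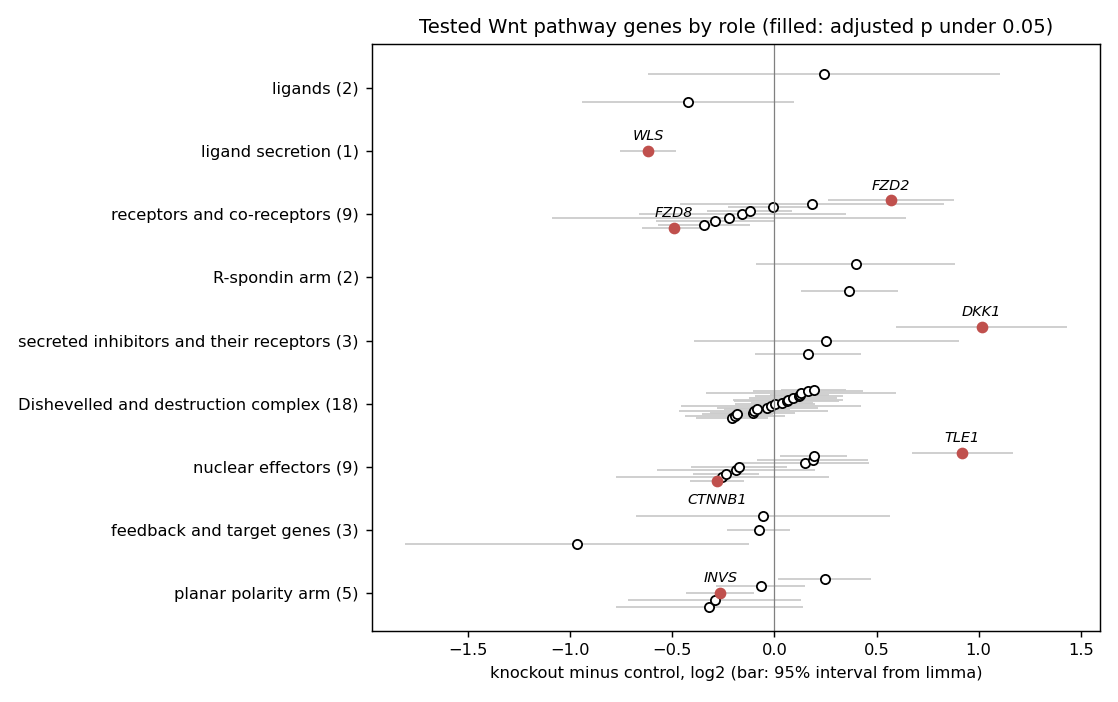
Knockout minus control log2 difference (horizontal axis) of the 52 tested Wnt pathway genes, grouped by role with the number tested in brackets; bars are 95% intervals from limma and filled red points have an adjusted p under 0.05. The 7 filled points are DKK1, TLE1 and FZD2 to the right of 0 and WLS, FZD8, CTNNB1 and INVS to the left.

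By role, the 2 tested ligands were WNT5A and WNT5B. Of 9 receptors and co-receptors FZD2 rose, FZD8 fell and 7 of the 9 had a difference below 0. PTK7, a co-receptor of the polarity branch, was lower in every knockout library by -0.34 (limma adjusted p = 0.0542). In the R-spondin arm, ZNRF3, a ubiquitin ligase that removes Frizzled from the membrane, was higher in every knockout library by 0.37 (limma adjusted p = 0.0514). None of the 18 tested genes of the Dishevelled proteins and the destruction complex was called by limma, and their differences ran from -0.21 to 0.19. An unadjusted limma p under 0.05 was reached by 3 of these 18 and by 2675 of all 9016 tested genes. LEF1, a partner of β-catenin on DNA, was lower in every knockout library by -0.24 (limma adjusted p = 0.0623). By set of replicates (1-2, then 3-4), PTK7 differed by -0.56 and -0.13, ZNRF3 by 0.18 and 0.55 and LEF1 by -0.33 and -0.14. The interaction passed for PTK7 and ZNRF3 (limma adjusted p = 0.00920 and 0.0113) but not for LEF1 (0.121). Groups that do not overlap were seen for 15 of the 52 tested list genes and for 22.9% of all tested genes. PTK7, ZNRF3 and LEF1 are named after their values were seen, as are the genes of the next paragraph other than AXIN2.

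Of 8 feedback and target genes listed, 3 were tested, with differences of -0.97 to -0.055. None of the 3 was called by limma, and 1 had an unadjusted limma p under 0.05, as had 2675 of all 9016 tested genes. This was TNFRSF19, a receptor that β-catenin signalling is known to induce. It was lower in every knockout library (-0.97 ± 0.37, SE, limma adjusted p = 0.120). Without the filter all 8 could be fitted, with none called and limma adjusted p-values of 0.163 to 0.921, where 8.30% of all genes were called. AXIN2, NKD1, NKD2 and SP5, inhibitors or effectors that the pathway induces, differed by 0.61, 0.27, 0.16 and 0.37, and APCDD1, a membrane inhibitor, by -0.26. CCND1, which encodes cyclin D1, had a mean of 7.12 ± 0.09 in the controls and a difference of -0.078 (95% interval -0.23 to 0.075; limma adjusted p = 0.480).

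Genes below the filter, chosen here after their values were seen, add WNT7A and PYGO1. WNT7A, a ligand, was -1.23 to -0.96 in the 4 controls and 0.81, 0.74, -0.16 and -0.22 in the knockouts, a log2 difference of 1.36 ± 0.26 (SE; limma adjusted p = 0.0220 without the filter). Its adjusted p was 0.0513 with the replicate block, 0.117 with the knockout pairs averaged, and 0.0691, 0.0686 or 0.0690 without control library 1, 2 or 4 (0.00683 to 0.117 over all alternatives). PYGO1, a nuclear cofactor of β-catenin, was 0.06, -0.23, 0.32 and 0.22 in the controls and 0.79, 0.74, 1.11 and 0.92 in the knockouts, a difference of 0.80 ± 0.14 (SE; limma adjusted p = 0.0181 without the filter). Its adjusted p was 0.140 with the knockout pairs averaged and 0.0608 or 0.0533 without control library 1 or 4 (0.00386 to 0.140 over all alternatives). With a pseudocount of 1, which compresses low values, the difference was 0.61 for WNT7A and 0.46 for PYGO1, both called.

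The tested genes whose values over the 8 libraries were most like those of DKK1 were MRPL28, a mitochondrial ribosomal protein (Pearson r = 0.996), THAP4 (0.989) and NFS1, a cysteine desulfurase of iron-sulfur cluster synthesis (0.988). For WNT5A they were SPSB1, ACTB and HGS (0.997, 0.997 and 0.993), and for AXIN2 the mitotic kinesin KIF11, the replication initiation factor TICRR and AASS (0.991, 0.991 and 0.990). Likeness this high was common, with 108, 170 and 203 genes at an r of at least 0.95, and the 8 points share their normalization and include close pairs of libraries.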

How the data were processed

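The deposited table holds 1 log2 value per gene symbol and library. The library means (1.07) differed by at most 5.16e-07, from which it was inferred that the authors' log2 values had been quantile normalized. The median of the library medians was 1.77, and the values in the table ran from -10.5 to 12.1. GRCh38, bcl2fastq and Partek 7.0 are named, with no role, per the submitters' processing notes. Aligner, counting and annotation are not given in the sources used here. Blank cells were treated as missing, and all 8 columns of values were used.

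Of 13943 genes with no blank cell, the 9016 whose mean reached 1 were fitted with limma 3.58.1 (R 4.3.3), knockout minus control, with no covariate and Benjamini-Hochberg adjustment over all of them. The interaction of group with replicate set (1-2 or 3-4) was fitted likewise. Both fits were tested on simulated data with independent noise in each library. The simulation held no close pairs of knockout libraries, so it does not show how the p-values behave with such pairs. Single genes were also compared by exact permutation. The alternatives were other filters, scalings and variance models, a pseudocount of 1, a replicate block, a set term, averaged knockout pairs and each library left out.

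The genes and lists were chosen with earlier results of these data known. Named genes were the 10 members, called list genes whose groups do not overlap (at most 20) and 3 genes most like DKK1, WNT5A and AXIN2. Others are marked.

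The labels number the replicates 1 to 4 in each group and call them biological replicates, without saying how the cultures were kept apart, so p-values measure the spread between these libraries only. Deviations of same-numbered libraries from their group means correlated by 0.20 to 0.29 across genes (mean 0.25). For other pairs within a set the correlation was 0.11 to 0.31 (mean 0.23), and across the sets it was -0.30 to -0.15 (mean -0.24). It thus followed the set and does not show pairing by number. The main fit used neither pairing nor a set term, and the replicate block and the set term were alternatives only. With the set term 25.2% of all tested genes were called, against 13.1% in the main fit.

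Gene positions and promoter windows (250 bases before the start) are from RefSeq, GRCh38.p14, and 50-base words from GENCODE 29 transcripts. The promoter table held 6 of the 10 genes.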

Additional observations from a re-analysis of the deposited data

Results flagged for a closer look

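The knockout difference in replicates 3 and 4 was set apart from that in replicates 1 and 2 by the limma interaction test for 8 of the 9 genes tested with the filter, where 41.3% of all genes passed. Without the filter it was 7 of the 10 genes, AXIN2 among them but not FZD2 or LRP6, and 27.4% of all genes. The difference between the sets (3-4 minus 1-2, log2) was 1.27 for FZD1, 0.83 for FZD7, 0.74 for WNT5A, 0.70 for LRP5, 0.67 for AXIN2 and 0.34 for LRP6, which all stood higher against the controls in replicates 3 and 4. It was -2.08 for WNT5B, -0.88 for DKK1 and -0.39 for FZD2, which stood higher against the controls in replicates 1 and 2. The limma adjusted p was 0.00155 for WNT5A and 7.50e-04 for LRP5. The labels do not describe the sets, and what they share was not tested.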

How the results depend on the processing

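The call of 2 of the 9 listed genes held, for the same genes DKK1 and FZD2, with no filter on low values, other scalings (median centring or another quantile step), a pseudocount, a variance trend, the replicate set as a term and the replicate block (2 genes). With a mean of at least 3, which left 4 of the genes to test, it was 1 gene, with the knockout pairs averaged 0, and with 1 library left out 1 to 2. Without the filter, where all 10 listed genes were tested, FZD2 was only just under the threshold (limma adjusted p = 0.049992). Of the pathway list, 7 genes were called and 5 with the replicate block; the count was 12 with the replicate set as a factor and 3 with the knockout pairs averaged, and 4 to 7 with 1 library left out. The share of all tested genes called was 13.1%, 10.2% with the block, 25.2% with the factor, 1.20% with the averaged pairs and 4.34 to 15.0% with 1 library left out. With a mean of at least 3 it was 15.6%. The difference between the sets was called for 8 genes and, with a mean of at least 3, for 3 of the 4 left. With 1 library left out, an alternative chosen after seeing the data, it was called for 6 to 8. Of all tested genes, 41.3% had such a call, 43.2% with a mean of at least 3 and 26.8 to 48.4% with 1 library left out.

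Over the 17 genes named with alternatives, 238 of the single values kept their direction and side of the threshold, 34 kept the direction and lost the threshold, 1 (AXIN2 with the set term) passed it, and 3 changed sign. The latter were FZD1 and FZD7, neither of them called, with ranges of -0.48 to 0.054 and -0.0090 to 0.40 when 1 library was left out. Genes that were not called at first could not lose the threshold, so the 34 losses fell on called genes alone. There were 13 for INVS, 7 for FZD2, 5 each for CTNNB1 and WNT7A, 3 for PYGO1 and 1 for DKK1. WLS, FZD8 and TLE1 had none. The replicate block ended the calls of CTNNB1, INVS and WNT7A and changed no other call of a named gene. Depth is unknown, so its limit on low genes such as AXIN2 cannot be stated.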

Other observations

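Of the 43 tested pathway genes outside the 10, 17 passed the limma interaction test, against 41.3% of all tested genes, 12 with a more positive and 5 with a more negative knockout difference in replicates 3 and 4. The genes named here were chosen after their values were seen. TNFRSF19 was 2.69, 2.63, 2.51 and 2.63 in the controls and 0.79, 0.99, 2.43 and 2.37 in the knockouts, or -1.77 against the controls in the first set of replicates (1 and 2) and -0.17 in the other (limma adjusted p of the interaction 4.42e-05). The corepressor TLE3 differed by -0.68 and 0.17, the polarity cadherin CELSR1 by -0.78 and 0.19, and the polarity protein VANGL1 by -0.59 and -0.05 in the sets, with limma adjusted p-values of the interaction of 7.89e-04, 0.00108 and 0.00265. These 4 genes were lowest in knockout libraries 1 and 2. So was SFRP1, a secreted inhibitor, which differed by -0.16 and 0.67 in the sets (limma adjusted p of the interaction 4.07e-04). CSNK1A1, a kinase of the destruction complex, went the other way, with 0.30 and -0.18 (limma adjusted p of the interaction 0.00422), as did TLE1. Of the first 4 genes none was called over all 8 libraries by limma. TNFRSF19 alone of them had an unadjusted limma p under 0.05, as had 2675 of all 9016 tested genes.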
